A study of Homo sapiens with 7 samples.

Results

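FOXA1 binding was compared between LNCaP cells treated with GSK2879552 plus PFI-2, here called the combination, and LNCaP cells treated with DMSO. The peak lists of these 2 libraries, of 7 in the series, were selected by sample title. On chromosomes 1 to 22 and X, build hg19, the combination list held 83352 peaks and the DMSO list 79741 peaks. LNCaP is an established androgen-responsive human prostate cancer line that was derived from a lymph node metastasis. GSK2879552 inhibits the lysine demethylase LSD1, PFI-2 inhibits the lysine methyltransferase SETD7, and DMSO is the vehicle. Both libraries were made with an antibody to FOXA1 after 4 hours of treatment, from chromatin crosslinked with 1% formaldehyde. The treatment label of the combination sample allows for PFI-2 being absent, but its title names both agents, and all 83352 peak names carry the tag PFI_GSK. No doses are stated in the labels.

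FOXA1 is a forkhead pioneer factor, a protein that can bind its sites on nucleosomal DNA and help to open chromatin for other regulators. In luminal prostate cells it binds mainly at distal enhancers, many of which are also bound by the androgen receptor. LSD1 removes methyl groups from lysines and SETD7 adds them, on histones and on other proteins. The title of the study names FOXA1 as a substrate of SETD7, and the comparison asks how the set of FOXA1 sites looks when both enzymes are inhibited.

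FOXA1 sites were largely the same with the combination and with DMSO. Of the combination peaks, 70676 overlapped a DMSO peak by at least 1 bp, or 84.8% (95% Wilson interval 84.5 to 85.0). Of the DMSO peaks, 70646 overlapped a combination peak, or 88.6% (88.4 to 88.8). A peak was called gained when it was in the combination list with no DMSO peak within 1 kb, which was so for 11374 peaks, or 13.6% of the combination list (13.4 to 13.9). A peak was called lost when it was in the DMSO list with no combination peak within 1 kb, which was so for 8274 peaks, or 10.4% of the DMSO list (10.2 to 10.6). There was 1 library per condition, so no spread between replicates could be measured and no difference between conditions was tested. The intervals cover the counting of peaks only. Depth is unknown, since the lists hold no reads, and it affects how many weak peaks are found. With both lists cut to equal length by score, gained peaks were 11.9% and lost peaks 12.2%. Lists of equal length whose shared peaks pair almost 1 to 1 have nearly equal unshared parts by construction. These values therefore cannot tell why the gained share was larger in the full lists.

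Peaks near the 1 kb limit had similar scores on both sides of it. In the combination list, 1302 peaks lay within 1 kb of a DMSO peak without touching it. Of these, 256 were 751 to 1000 bp away, with a median score percentile of 15.6, and the 226 peaks 1001 to 1250 bp away, which were called gained, had a median of 18.0. In the DMSO list, 821 peaks were close to a combination peak but did not overlap one. Their 139 members at 751 to 1000 bp had a median percentile of 17.3, and the 124 lost peaks at 1001 to 1250 bp had a median of 16.2. The limit divided peaks of like score. Most gained and lost peaks were much farther from the other list, at a median of 11094 bp for gained peaks and 12357 bp for lost ones.

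Gained and lost sites were weak sites. Each file gives 1 score per peak, the authors' own value, which was used only as a rank within its list and is given as a percentile, with 100 for the highest score. Gained peaks had a median percentile of 15.2 (quartiles 6.99 and 25.9), and lost peaks a median of 13.0 (6.52 and 22.9). Combination peaks also found with DMSO had a median of 57.6, and kept DMSO peaks a median of 55.7. The lower-scoring 50% of the combination list held 98.6% of the gained peaks, and that of the DMSO list held 99.2% of the lost ones. Presence in a list itself depends on the signal passing the authors' threshold, so rank and presence were not independent measures.

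The share of sites found in both conditions rose steadily with rank. In the lowest score decile, 47.3% of the combination peaks overlapped a DMSO peak, and 55.3% of the DMSO peaks overlapped a combination peak. In decile 5 these shares were 92.5% and 96.0%. In deciles 8 to 10, none of the 25013 combination peaks lacked a DMSO peak within 1 kb. The upper counting limit for a count of 0, taken as 3 peaks, is 0.012%. None of the 23964 DMSO peaks in those deciles lacked a combination peak, for which this limit is 0.0125%. These limits cover counting error and not what a repeat of the libraries would give. The highest-ranked gained and lost sites were at percentiles 66.1 and 68.5, so neither class reached the highest-scoring 30% of its list.

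**Figure D1:**
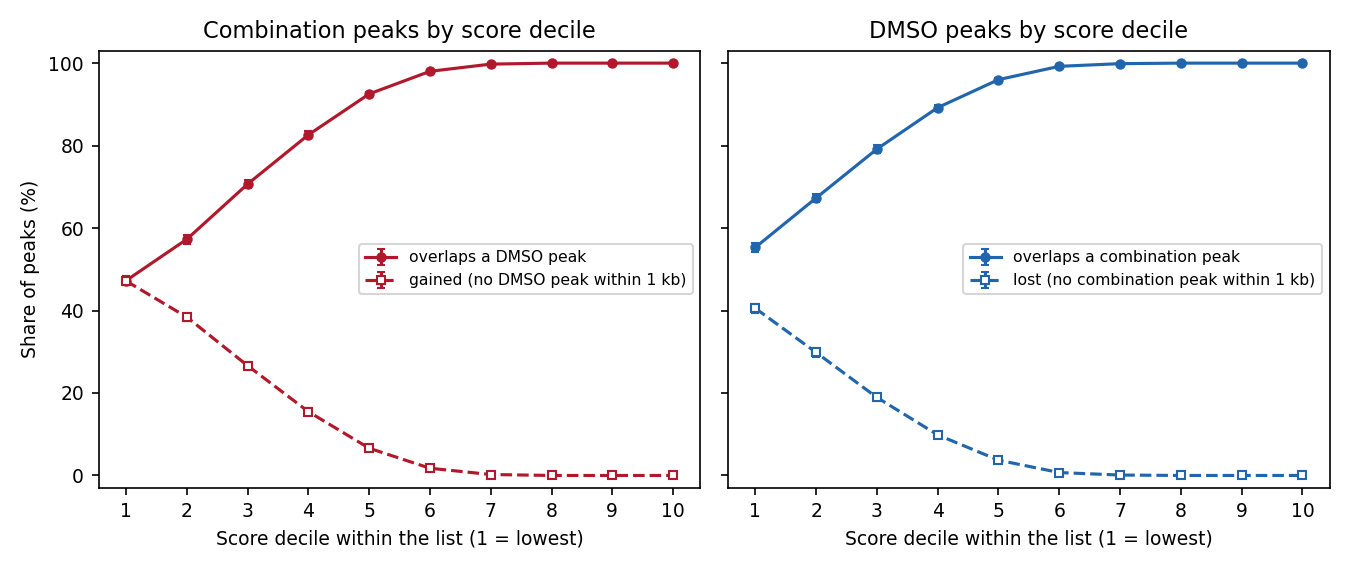
Share of FOXA1 peaks (y axis, %) that overlapped a peak of the other list (filled circles, solid lines) or had no such peak within 1 kb (open squares, dashed lines), by score decile within the list (x axis, 1 = lowest); combination peaks are on the left, DMSO peaks on the right, and bars are 95% Wilson intervals. The share found in both lists goes from 47.3% of combination peaks and 55.3% of DMSO peaks in decile 1 to complete sharing in deciles 8 to 10.

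The highest-scoring FOXA1 sites were largely shared by both conditions. The pair with the highest DMSO score was on chromosome 18, from 70856792 to 70857420 in the combination list and from 70856777 to 70857432 in the DMSO list, with the highest score of each list, 3780 and 3636. The other pairs among the highest 5 by DMSO score were on chromosomes 8, 17, 9 and 10. By combination score the site on chromosome 17, at 3638, stood above that on chromosome 8, at 3471. All 5 were also peaks with GSK2879552 alone and in the 3 FOXA1 lists of 22Rv1. None of the 5 overlapped a SETD7 peak of 22Rv1. Of the highest 10% of combination peaks, 85.1% (84.3 to 85.8) overlapped a peak in the highest 10% of the DMSO list, and 88.8% (88.1 to 89.5) did so in the reverse direction. For the highest 1% the shares were 80.1% (77.3 to 82.7) and 83.8% (81.1 to 86.2).

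Ranks were compared at 70020 pairs, in which a combination peak and a DMSO peak overlapped each other and nothing else. These pairs made up 99.1% of the shared peaks in each list. Only 202 combination peaks spanned 2 DMSO peaks, and 232 DMSO peaks spanned 2 combination peaks. Paired peaks lay at nearly the same place: the median distance between midpoints was 19.5 bp, and 86.7% of the pairs had midpoints within 50 bp. The ranks ran closely together across pairs, with a Spearman correlation of 0.90, which describes peaks of 1 library each and is not a test. The rank difference, the combination percentile minus the DMSO percentile, had a median of 0.68 and quartiles of −4.99 and 7.96.

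Larger moves in rank went in both directions. The combination percentile was at least 20 points higher in 5717 pairs, or 8.16% (7.96 to 8.37), and at least 20 points lower in 3831 pairs, or 5.47% (5.31 to 5.64). This excess of higher over lower depended on how ranks were taken. When the pairs were ranked among themselves alone, the shares were 6.55% and 6.48%. That ranking removes any difference in mean rank by construction, so shares close to each other follow largely from it. With lists of equal length the shares were 6.67% and 6.94%, so the direction of the excess turned round. Among the 35589 pairs with both peaks in the higher-scoring 50% of their lists, 240 were at least 20 points higher and 83 at least 20 points lower. That rule leaves out a site that ranked high in 1 condition and below the middle of the list in the other. With at least 1 peak in the higher-scoring 50%, 2788 of 45052 pairs were at least 20 points higher, or 6.19%, and 1560 at least 20 points lower, or 3.46%. The counts under both rules use ranks in the full lists, so the same dependence on how ranks were taken may apply to them. Of pairs with both peaks in the higher-scoring 50%, 86.4% stayed within 10 points. With at least 1 peak in the lower-scoring 50%, 40.7% did.

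Among the pairs, the lowest-ranked sites of either list mostly ranked higher in the other, where they had little room to rank lower. Pairs covered 3890 of the 8414 combination peaks and 4308 of the 7934 DMSO peaks in decile 1. Of all peaks in that decile, 47.2% were gained in the combination list and 40.5% lost in the DMSO list. In pairs from decile 1 of the combination list, the median difference was −11.2 percentiles. Pairs in decile 1 of the DMSO list were a median of 13.7 percentiles higher with the combination. The sites were selected on the rank in 1 list each time, and the direction followed the list used. In decile 10 the median differences were 0.29 by combination decile and −0.03 by DMSO decile.

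**Figure D2:**
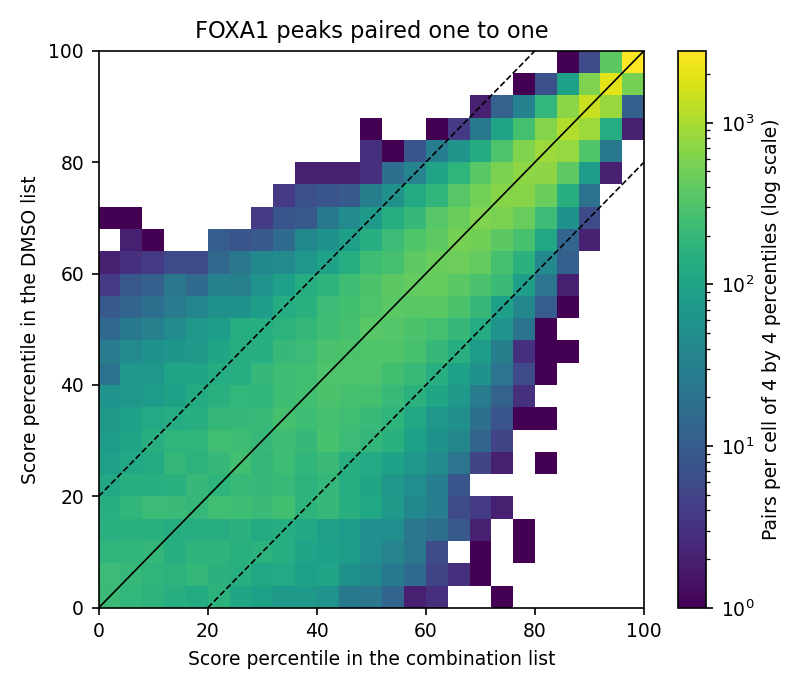
Score percentile of 70020 paired FOXA1 peaks in the combination list (x axis) and the DMSO list (y axis); colour gives the number of pairs per cell of 4 by 4 percentiles on a log scale, the solid line marks equal rank and the dashed lines a difference of 20 percentiles. Pairs lie on a narrow band at high ranks and spread widely at low ranks, with 5717 pairs at or past the lower dashed line and 3831 at or past the upper one.

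The sites that ranked higher or lower by the most were moderate in one condition and near the floor of the list in the other. The largest rise was on chromosome 5 from 180524128 to 180524473 in the combination list, at percentile 72.7 with the combination and 3.35 with DMSO. That site was at percentile 80.9 in the GSK2879552 list and was a peak in all 3 FOXA1 lists of 22Rv1. The next were on chromosome X from 133825520 to 133825869, at percentiles 76.3 with the combination and 10.97 with DMSO, and on chromosome 15 from 72405939 to 72406324, at 79.7 with the combination and 15.0 with DMSO. Of the 2, the site on chromosome 15 had a GSK2879552 peak and that on chromosome X had none. The largest fall was on chromosome 17 from 47269341 to 47269687, at percentile 3.44 with the combination and 69.1 with DMSO, and at 3.14 with GSK2879552. A site on chromosome 5 from 36286090 to 36286333 was at 6.25 with the combination, 8.01 with GSK2879552 and 70.7 with DMSO. The next largest fall, on chromosome 13 from 70691722 to 70691964, was at 0.30 with the combination and 62.5 with DMSO, and it was not a peak with GSK2879552. Over all 10 largest rises the combination percentile exceeded the DMSO percentile by 57.9 to 69.3 points, and over the 10 largest falls the difference was −65.7 to −55.9 points.

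The GSK2879552 list gave a further reading of the sites that moved, from a library that the grouping did not use. A pair counted as having a GSK2879552 peak only when the same single peak, and no other, overlapped both of its members. Pairs at least 20 points higher with the combination had a GSK2879552 peak in 69.6% of cases. In these the median percentile was 53.4 with the combination, 35.5 with GSK2879552 and 23.5 with DMSO. Pairs within 20 points had one in 79.5% of cases, with medians of 69.9 for the combination, 60.4 for GSK2879552 and 68.7 for DMSO. Pairs at least 20 points lower had a GSK2879552 peak in 55.1% of cases, with medians of 22.5 for the combination, 29.1 for GSK2879552 and 51.2 for DMSO. The GSK2879552 median lay between the combination and DMSO medians in both moved classes, and below both in the pairs within 20 points. Moved pairs were selected for a wide gap between the combination and DMSO ranks. A further list can fall between them by that selection alone. Percentiles come from lists of different length, with 63866 GSK2879552 peaks, so the 3 medians are set side by side and not compared by a test.

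Peak widths were almost identical in both conditions. The median width was 333 bp in the combination list (quartiles 265 and 410) and 333 bp in the DMSO list (265 and 411). At the pairs, the combination peak was a median of 4 bp wider, with quartiles of −30 and 39 bp, so the difference was small beside its spread over pairs. It was wider in 52.9% of the pairs and narrower in 46.3%. Width grew with rank in the same way in both lists, from 228 bp in decile 1 of each list to 471 bp with the combination and 478 bp with DMSO in decile 10. Peaks of the GSK2879552 library were narrower in every decile, at 193 bp in decile 1 and 359 bp in decile 10. The smallest width of any peak was also lowest for GSK2879552: it was 206 bp with the combination, 178 bp with GSK2879552 and 208 bp with DMSO. The part of fragment length or peak calling in these widths was not tested.

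**Figure D3:**
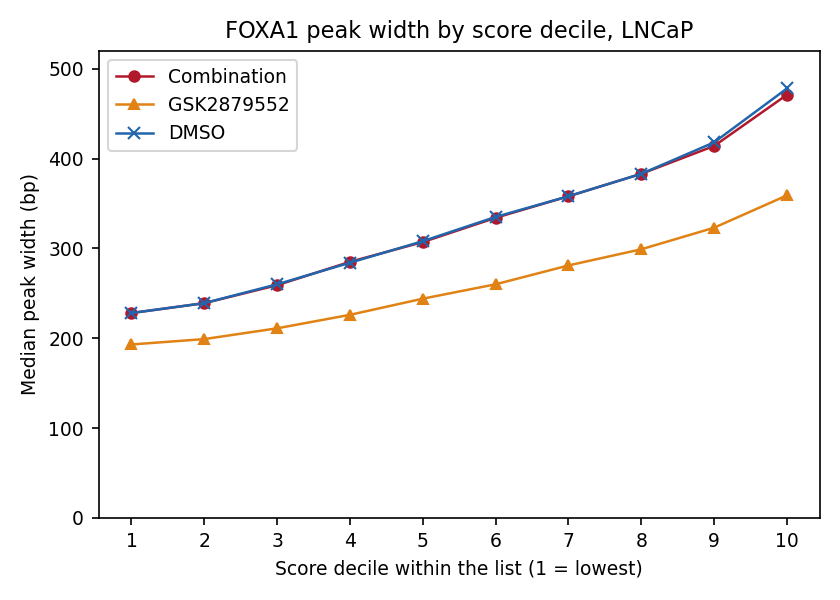
Median FOXA1 peak width (y axis, bp) by score decile within each list (x axis, 1 = lowest) for the combination, GSK2879552 alone and DMSO in LNCaP. The combination and DMSO lines coincide from 228 bp in decile 1 up to decile 8 within 1 bp and end at 471 and 478 bp, while the GSK2879552 line runs below both, from 193 to 359 bp.

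Pairs that differed in rank also tended to differ in width. Pairs at least 20 percentiles higher with the combination had median widths of 314 bp with the combination and 264 bp with DMSO, and 78.8% of them were wider with the combination. Pairs at least 20 percentiles lower had medians of 270 bp with the combination and 312 bp with DMSO, and 26.7% were wider with the combination. Among strong pairs, the largest gains in width were on chromosome 1, with 826 bp from 181273280 to 181274105 in the combination list and 355 bp with DMSO, and on chromosome 4, with 743 bp from 73867044 to 73867786 and 309 bp with DMSO. The largest loss was on chromosome 7, with 374 bp from 7691906 to 7692279 in the combination list, against 898 bp from 7691887 to 7692784 with DMSO. These 3 sites ranked 0.54, 3.10 and 11.2 percentiles higher with the combination, including the site on chromosome 7 that was narrower with it. In each of deciles 1 to 6, gained and lost peaks were narrower than shared ones. In decile 3, gained peaks had a median width of 243 bp, against 267 bp for combination peaks also found with DMSO. Lost peaks in decile 3 of the DMSO list had a median of 243 bp, against 265 bp for kept ones.

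The 10 highest-scoring gained sites had scores of 323 to 356 and percentiles of 62.6 to 66.1. The first was on chromosome X from 129464613 to 129464917, with a score of 356 and the nearest DMSO peak 44.6 kb away. It was a peak in the GSK2879552 list and in all 3 FOXA1 lists of 22Rv1, so FOXA1 signal was called at this position in every FOXA1 library of the series except that of DMSO. The next 2 were on chromosome 14 from 86337276 to 86337569 and on chromosome 16 from 50239269 to 50239579. Both were GSK2879552 peaks, at percentiles 15.4 and 52.8, and neither was a peak in 22Rv1. The fourth, on chromosome 6 from 50934265 to 50934594, was found in no other list. The tenth, on chromosome 16 from 74233050 to 74233332, was at percentile 96.6 in the shCTL list of 22Rv1, the control of a hairpin against SETD7. In all, 8 of the 10 had a GSK2879552 peak, 5 had a 22Rv1 FOXA1 peak and none overlapped a SETD7 peak. Among combination peaks of the higher-scoring 50% also found with DMSO, these shares were 95.3%, 67.6% and 0.900%. That 50% includes ranks far above these sites. In decile 6, just below them, such peaks had a GSK2879552 peak in 84.8% of cases and a 22Rv1 FOXA1 peak in 51.8%.

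The 10 highest-scoring lost sites had scores of 260 to 344 and percentiles of 58.1 to 68.5. The first, on chromosome X from 79391870 to 79392234, had a score of 344, lay 73.6 kb from the nearest combination peak and was found in no other list. The second, on chromosome 9 from 86805337 to 86805674, had a weak GSK2879552 peak, at percentile 16.5. The third, on chromosome 15 from 81989834 to 81990135, ranked low with GSK2879552 at percentile 12.8. It was strong in 22Rv1, at percentile 93.7 in vehicle cells, 94.5 in shCTL cells and 97.7 in shSETD7 cells, whose hairpin targets SETD7. The fifth, on chromosome 6 from 95603132 to 95603429, was at percentile 86.6 in shCTL cells and was not a GSK2879552 peak. In all, 4 of the 10 had a GSK2879552 peak, 3 had a 22Rv1 FOXA1 peak and none overlapped a SETD7 peak. Among kept DMSO peaks of the higher-scoring 50%, the shares were 94.98%, 68.3% and 0.826%, but that 50% includes ranks far above these sites. In decile 6, at or just below their ranks, kept peaks had a GSK2879552 peak in 84.1% of cases and a 22Rv1 FOXA1 peak in 52.8%. All 10 gained and all 10 lost sites kept their class when the distance was set to 500 bp or to 2 kb.

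Many gained and lost sites were FOXA1 sites in 22Rv1, whose libraries had no part in the definition. Of the gained sites, 38.6% (37.7 to 39.5) overlapped a peak in at least 1 of the 3 FOXA1 lists of 22Rv1. The share was 58.1% among all combination peaks also found with DMSO, and 42.3% among such peaks at the score deciles of the gained sites. Of the lost sites, 38.5% (37.5 to 39.6) overlapped a 22Rv1 FOXA1 peak, with 58.0% among all kept DMSO peaks and 42.0% among kept peaks at the deciles of the lost sites. At like rank, gained and lost sites were thus in at least 1 FOXA1 list of 22Rv1 less often than shared ones. The gap was under 4 percentage points in each case, and the gained and lost shares were alike. Shared peaks were by definition called in both LNCaP lists, a selection that matching by rank in 1 list leaves in place. By list, gained sites were at 21.9% in vehicle cells, 29.99% in shCTL cells and 18.7% in shSETD7 cells, against 23.6%, 34.8% and 20.4% for shared peaks at like rank. Lost sites were at 19.6%, 30.9% and 20.8% in that order, against 24.2%, 34.3% and 20.3% for kept peaks. Overlap with SETD7 peaks of 22Rv1 was low in every class, at 0.985% of gained sites (0.819 to 1.18) and 0.979% of lost sites (0.788 to 1.22), with 0.664% and 0.731% among shared peaks at like rank. The vehicle FOXA1 list of 22Rv1 is named as in the labels.

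The GSK2879552 list held few of the sites that differed. Of the gained sites, 25.3% (24.5 to 26.1) overlapped a GSK2879552 peak, against 41.7% of combination peaks also found with DMSO at like rank. Of the lost sites, 19.1% (18.3 to 19.99) did so, against 45.1% of kept DMSO peaks at like rank. Shared peaks were by definition called in both LNCaP lists of the comparison, and gained or lost ones were not. Matching used only the rank in a site's own list, so a lower share in another LNCaP list can follow from this selection alone. Gained and lost sites that ranked in the higher-scoring 50% were few, and they too had a GSK2879552 peak less often than shared peaks of that 50%, which include the highest ranks. It was found at 113 of 164 gained sites, or 68.9% (61.5 to 75.5), against 95.3% of shared combination peaks. It was found at 32 of 64 lost sites, or 50% (38.1 to 61.9), against 94.98% of kept DMSO peaks. Set against DMSO, the GSK2879552 list lacked a peak within 1 kb at 26.9% of the DMSO peaks, where the combination lacked 10.4%. In DMSO decile 5 the shares without a peak were 25.8% for GSK2879552 and 3.71% for the combination. Both comparisons use the same DMSO list, and the GSK2879552 list is the shortest of the 3, so the values stand side by side without a test.

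**Figure D4:**
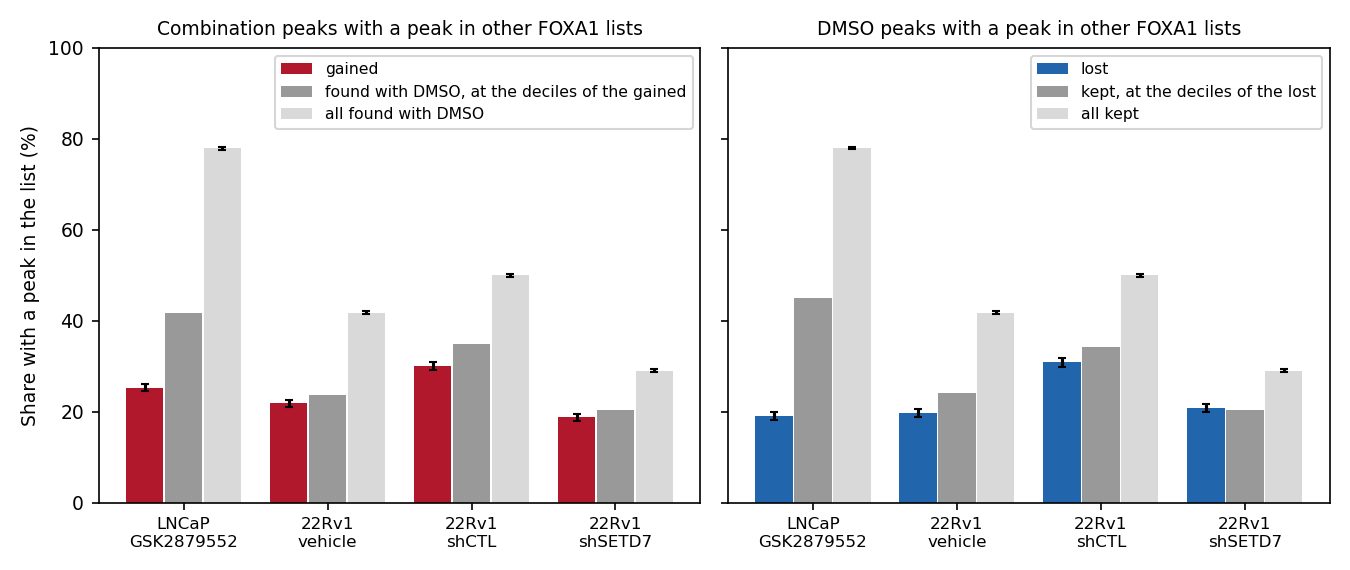
Share of peaks (y axis, %) that overlapped a peak in 4 other FOXA1 lists (x axis), with gained combination peaks on the left (red) and lost DMSO peaks on the right (blue), beside peaks shared by both lists weighted to the score deciles of the gained or lost peaks (dark grey) and all shared peaks (light grey); error bars are 95% Wilson intervals. Matching by score decile brings shared peaks close to gained and lost ones in the 22Rv1 lists. In the GSK2879552 list gained peaks stand at 25.3% against 41.7% and lost peaks at 19.1% against 45.1%. Shared peaks were by definition called in both lists and gained or lost ones were not, a difference that the decile matching leaves in place.

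Gained and lost sites were spread over the genome among shared sites. On the 22 autosomes gained peaks made up 11.9% to 16.95% of the combination peaks and lost peaks 8.36% to 11.6% of the DMSO peaks. Of 2702 windows of 1 Mb with at least 20 peaks in both lists together, 90.5% held both a gained and a lost peak. Windows with this many peaks would often hold both at the shares of the whole lists, and no expected value was computed. The log2 ratio of combination to DMSO peak numbers had a median of 0.06 and lay between −0.19 and 0.29 in the central 90% of windows. No window passed a log2 ratio of 1 in either direction. The highest ratio, 0.86, was on chromosome 19 from 10000001 to 11000000, with 20 combination and 11 DMSO peaks, of which 8 were gained and none lost. The lowest, −0.64, was on chromosome X from 150000001 to 151000000, with 9 combination and 14 DMSO peaks, of which 5 were lost and none gained. Gained sites lay a median of 12.5 kb from the nearest combination peak that was shared, and 41.7% of them were within 10 kb, against 42.5% for shared peaks at like rank. Lost sites lay a median of 14.4 kb from the nearest kept peak and 35.7% were within 10 kb, against 42.4% for kept peaks at like rank.

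On chromosome X more DMSO peaks were lost than its score ranks account for, while gained peaks matched them. There, 337 of 2249 DMSO peaks were lost, or 15.0% (13.6 to 16.5), where its mix of score deciles would give 11.8% at the rates of the whole list. Gained peaks were 337 of 2250, also 15.0% (13.6 to 16.5), and its deciles would give 14.8%. The lost share was higher on chromosome X in each of deciles 1 to 7, with intervals that did not overlap in deciles 1, 2 and 4. The gap was small in decile 3, at 20.4% against 18.9%. Deciles 6 and 7 of chromosome X rest on 4 lost peaks of 244 and 1 of 217. In decile 1, 49.0% of the DMSO peaks of chromosome X were lost (42.8 to 55.2), against 40.3% on the other chromosomes (39.2 to 41.4), and in decile 2 it was 40.4% (34.6 to 46.4) against 29.5% (28.5 to 30.5). In decile 4 it was 14.6% (10.7 to 19.6) against 9.69% (9.05 to 10.4). Peaks of chromosome X also ranked lower in both lists, with 23.4% of its combination peaks and 22.8% of its DMSO peaks in deciles 8 to 10, against 30.2% and 30.3% elsewhere. Along the chromosome, in steps of 20 Mb, the lost share ran between 11.3% and 18.2% and all intervals overlapped. Of the DMSO peaks of chromosome X, 35.6% (33.7 to 37.6) also lacked a GSK2879552 peak within 1 kb, where its deciles would give 30.4%. That value rests on the same DMSO list, and 8 of the 23 chromosomes lay outside such an interval, 3 above the share from deciles and 5 below. The part of DNA copy number in these shares was not tested.

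**Figure D5:**
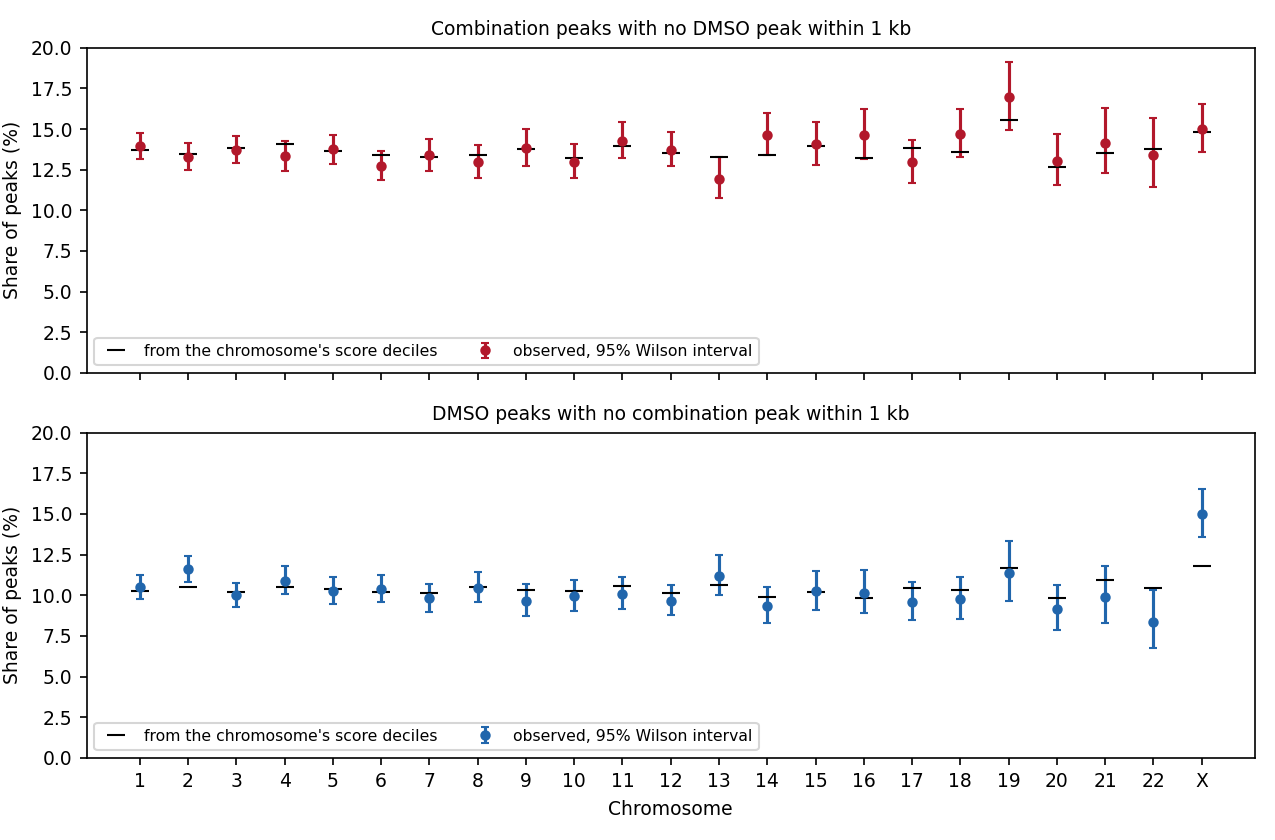
Share of peaks (y axis, %) gained with the combination (top, red) and lost from DMSO (bottom, blue) on each chromosome (x axis), with 95% Wilson intervals; black dashes give the share computed from the chromosome's mix of score deciles at the rates of the whole list. Chromosome X is at 15.0% lost, above its dash of 11.8%, and at 15.0% gained, close to its dash of 14.8%.

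Outside chromosome X the decile mix lay within the interval of the observed share for all but 2 autosomes for gained peaks and all but 2 for lost peaks. For gained peaks these were chromosome 13, at 11.9% (10.7 to 13.27) where the deciles gave 13.29%, and chromosome 14, at 14.6% (13.39 to 15.96) where they gave 13.388%, both at the edge of the interval. Lost peaks were more frequent than by decile on chromosome 2, at 11.6% (10.8 to 12.4) against 10.5%, and less frequent on chromosome 22, at 8.36% (6.76 to 10.3) against 10.5%. With 23 chromosomes looked at in each direction, intervals of this kind miss some by counting error alone. Chromosome 19, at 16.95% (15.0 to 19.2), had the largest gained share of the autosomes, and its peaks ranked low, with a median percentile of 46.4 in the combination list.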

How the data were processed

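FOXA1 and SETD7 were mapped by chromatin immunoprecipitation sequencing. Per the submitters' processing notes, the tools were MACS2 2.1.4, SAMtools 1.9, BWA 0.7.17-r1188 and FastQC 0.11.9, and the build was hg19. What each did, its settings, the peak threshold and whether an input was used are not stated there. The deposited files hold 1 list per library, with a position, a name and a whole-number score per peak. What the score measures is not stated, so it was ranked within its list only.

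BED columns 1 to 5 were used, on chromosomes 1 to 22 and X, which left out 481 combination and 464 DMSO peaks. Shared peaks overlapped by 1 bp or more, and lost or gained peaks had none within 1 kb. Tied scores took their mean rank. Shares "at like rank" are those of shared peaks weighted to the deciles of the lost or gained ones. Positions are 1-based. Groups were taken from titles, with 1 library each, so nothing was tested between conditions. Wilson intervals, 95%, and the 3 peaks that a count of 0 allows cover counting error only. The overlap code gave the same 70646 kept DMSO peaks as bedtools 2.31.1, which gave 8275 lost and 11375 gained peaks, 1 more each than here, because a gap of exactly 1 kb counts as within 1 kb here. It was tested on simulated data. Software was matplotlib 3.10.9, scipy 1.17.1, pandas 2.3.3 and numpy 2.4.6 under Python 3.11.15.

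Named sites were the 10 highest scores among gained and among lost peaks, the 10 largest rank changes in each direction with 1 peak or more in the higher-scoring 50%, the 5 largest width changes in each direction with both there, the 5 highest DMSO scores and the 3 most extreme windows each way; examples of each are given. The comparison and these rules were chosen with earlier results of these data known. Promoters, motifs and gene loci had been planned and were not run, since an hg19 annotation or sequence was not used here. Sites are therefore given by position.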

Additional observations from a re-analysis of the deposited data

How the results depend on the processing

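Of 60 alternatives over 12 results, 34 left the value inside the interval of the reported one (for the counts of named sites, unchanged) and 26 moved it out. A change of sign was possible only for the rank correlation and the width difference, and neither changed sign. The other results are shares or counts, which cannot be negative. Combination peaks found with DMSO (84.8%) were 83.4% under reciprocal 50% overlap, 84.3% when midpoints had to lie within 200 bp, 86.0% in the higher-scoring 50% of each list and 86.7% with lists of equal length. DMSO peaks kept (88.6%) came to 87.1%, 88.1%, 90.04% and 86.7% in that order. Gained peaks (13.6%) came to 14.3% beyond 500 bp, 12.8% beyond 2 kb, 13.4% in the higher-scoring 50% and 11.9% with lists of equal length; lost peaks (10.4%) came to 10.8%, 9.85%, 9.54% and 12.2%. Cutting to the higher-scoring 50% shortens both lists, so a partner below the middle no longer counts. With equal lengths the gained share was below the lost one, so their order turned round, though equal lengths hold the 2 shares close by construction. The rank correlation across pairs was 0.897 with the highest-scoring partner of every DMSO peak. Pairs that ranked 20 points higher (8.16%) or lower (5.47%) came to 8.41% and 5.22% in the higher-scoring 50%, to 6.67% and 6.94% with equal lengths, and to 6.55% and 6.48% ranked among themselves. The width difference of 4 bp was 3 bp in the higher-scoring 50%. With a peak required in all 3 lists of 22Rv1, gained and lost sites there came to 9.69% and 9.97%. Chromosome X, and the 359 combination and 353 DMSO peaks found in all 7 lists, moved none of the 8 results on sharing, rank and width out of its interval when left out. The last of these and the ranking of pairs alone were chosen after seeing the data. Stricter rules and shorter lists alter shares by construction, and other causes of these shifts were not tested. No paired analysis was possible because each group had 1 library and nothing was tested. The alternatives for promoters and motifs were not run. Read depth, unknown here, limits every share, most of all in the low deciles.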
